A study of Mus musculus with 27 samples.

Results

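Livers taken 8 days after weaning were compared with livers of mice that had never been pregnant. The comparison used 7 of the 27 bulk RNA sequencing libraries of the series. They were the 3 libraries whose titles begin with ID8 (involution day 8) and the 4 whose titles begin with NUL (nulliparous), chosen by title alone. All mice were wild-type BALB/c, an inbred laboratory strain. Matings for ID8 took place when the females were 10 to 12 weeks old. They nursed litters of equalised size and lost their pups to weaning after 10 to 14 days of lactation. The NUL mice were age-matched and unbred. Whole livers were frozen and ground before RNA extraction, so each library mixes all cells of the organ with the blood left in it. Libraries of 2 neighbouring stages, day 6 after weaning (ID6, 6 libraries) and 4 weeks after weaning (REG, 4 libraries), served to place the day 8 values, and those of lactation day 10 (LAC), day 2 (ID2) and day 4 (ID4) entered the same fit. Each library was taken as 1 animal. The labels do not say so, and the p-values measure the spread between these libraries.

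The liver enlarges and its hepatocytes divide during pregnancy and lactation, when it supplies fat, cholesterol and glucose for milk. After weaning this demand ends and the organ returns toward its earlier size while the mammary gland regresses. Hemoglobin messenger RNA in an adult liver comes from circulating reticulocytes and any red cell precursors, since hepatocytes do not make hemoglobin in quantity.

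The titles limit every result below. All 3 ID8 titles carry numbers under 200 (ID8_14, ID8_98b and ID8_101b), and all 4 NUL titles carry numbers of 200 or over (NUL_220, NUL_221, NUL_226 and NUL_227). The labels do not say what the number stands for, and for ID8 against NUL the number range and the stage cannot be told apart. Both ranges occur within 1 stage in ID2 (2 under 200, 1 over) and ID4 (2 and 2), where the difference between the ranges was estimated. None of 16428 genes was called for the number range (0%, edgeR, 759 genes or 4.62% at an unadjusted p under 0.05, and also 0 on log2(TPM + 1) with limma). Estimated counts totalled 41120650 (ID8_101b), 68700345 (ID8_14) and 63829299 (ID8_98b), against 60498871 to 70815012 in NUL. Albumin, the main plasma protein made by hepatocytes, took 9.88 to 10.1% of the counts in ID8 and 7.99 to 10.2% in NUL. Mitochondrial genes took 3.32 to 4.89% in ID8 and 4.00 to 5.17% in NUL. Markers of hepatocytes summed to 162360 to 181110 CPM in ID8 and to 135480 to 165880 CPM in NUL, where CPM stands for counts scaled to a common library size.

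Of the 16428 genes tested, 82 were called (0.499%), meaning a Benjamini-Hochberg adjusted p under 0.05 in edgeR's quasi-likelihood test. Higher levels in ID8 accounted for 59 (0.359%) and lower levels for 23 (0.140%). The median log2 fold change over all genes was 0.004. For 81 of the 82 genes the CPM of the ID8 and NUL libraries did not overlap, Sorbs3 being the exception, and over all genes tested 957 lay wholly above and 990 wholly below NUL. An absolute log2 fold change over 1 was reached by 45 of the 82. At an unadjusted p under 0.05 there were 2105 genes (12.8%), 1133 higher (6.90%) and 972 lower (5.92%). The largest falls were those of the hemoglobin genes, and mitotic and cholesterol synthesis genes were among the other calls lower in ID8. The calls higher in ID8 included immunoglobulin chains, fatty acid uptake and binding proteins, the retinol dehydrogenase family member Rdh16f2 and the steroid hydroxylase Cyp2a4. Leaving out a library moved the count to 29 (without ID8_101b), 51 (ID8_14), 54 (ID8_98b), 27 (NUL_226) or 28 (NUL_227), and 14 of the 82 genes were called without each of the 7 libraries in turn.

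**Figure D1:**
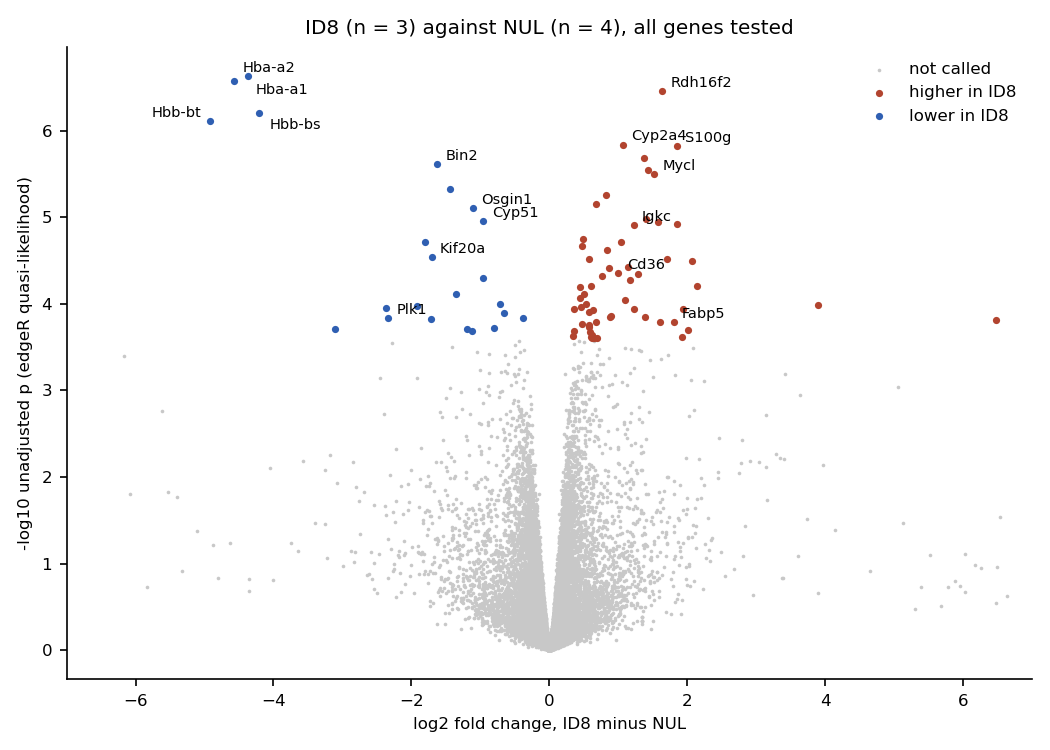
Each point is 1 of the 16428 genes tested, with the log2 fold change of ID8 (n = 3) minus NUL (n = 4) on the x axis and -log10 of the unadjusted edgeR p on the y axis. The 59 genes called higher are red and the 23 called lower are blue, and the 4 hemoglobin genes lie apart at log2 fold changes from -4.92 to -4.20.

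With the number range added to the fit as a covariate, 7 genes were called, 6 of them among the 82. These 6 were Hbb-bt, Hba-a2, Hba-a1, Hbb-bs, Rdh16f2 and S100g. The estimates of all 82 genes kept their sign. The covariate is estimated only within ID2 and ID4, so its uncertainty adds to that of each ID8 difference. A call can thus be lost with little change in the estimate. For example, Slc39a5 stayed at -1.44 while its edgeR adjusted p went from 0.00644 to 0.176. Bin2 went from -1.63 to -1.48 (edgeR adjusted p from 0.00446 to 0.186). The number range estimate from ID2 and ID4 had the sign of the ID8 difference for 35 of the 82 genes. It had an unadjusted p under 0.05 for 4 of them: S100g (-0.76 on the log2 scale) and Dio3os (-0.87), opposite in sign to the ID8 difference, and Sphk2 (0.32) and Gm19619 (1.0), of the same sign. Dio3os, Sphk2 and Gm19619 are named because of these values.

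**Figure D2:**
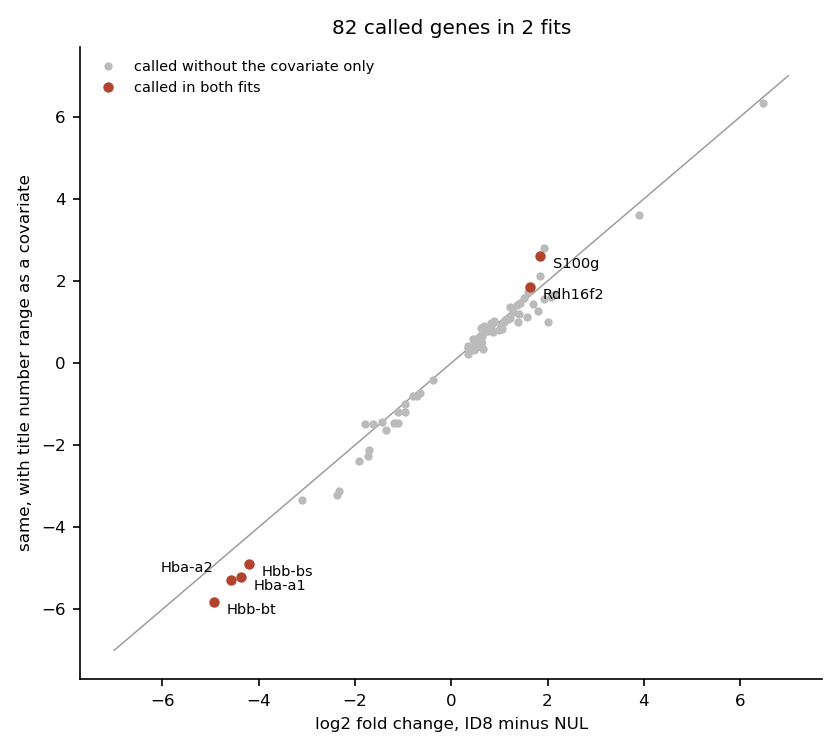
For the 82 called genes, the log2 fold change of ID8 minus NUL is plotted on the x axis and the same value from the fit with the title number range as a covariate on the y axis, with the line of equality. The 6 genes called in both fits are red and named, and S100g reached 2.61 with the covariate against 1.85 without it.

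Transcripts of all 4 adult hemoglobin genes were far lower at day 8 than in nulliparous liver. Hbb-bs encodes an adult beta chain and Hbb-bt its neighbouring copy on chromosome 7, and Hba-a1 and Hba-a2 encode the alpha chain on chromosome 11. The bases before their start sites are shown because all 4 genes were called and differed by similar factors. They are the 250 bases before the start in RefSeq's GRCm38.p6 table, which held all 4 genes. These are sequences of the reference genome. BALB/c mice carry another beta globin haplotype, so their own Hbb bases and motif positions may differ from those shown. Capitals mark matches on either strand to 4 motifs typical of globin promoters: the CCAAT box, the CACCC box searched as CCACACCC, the TATA box searched as TATAAA, and the GATA site searched as AGATAA.
Hba-a1, chr11:32283422-32283671, plus strand: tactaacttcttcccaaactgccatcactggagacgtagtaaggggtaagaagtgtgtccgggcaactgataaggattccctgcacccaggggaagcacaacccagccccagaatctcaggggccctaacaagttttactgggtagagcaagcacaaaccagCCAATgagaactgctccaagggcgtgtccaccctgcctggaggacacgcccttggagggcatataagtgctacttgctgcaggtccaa
Hbb-bs, chr7:103827929-103828178, minus strand: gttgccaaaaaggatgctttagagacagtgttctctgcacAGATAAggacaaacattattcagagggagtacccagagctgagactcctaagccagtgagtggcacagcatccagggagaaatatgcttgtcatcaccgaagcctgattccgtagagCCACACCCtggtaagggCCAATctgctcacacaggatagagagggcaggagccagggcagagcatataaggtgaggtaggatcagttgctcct
Hbb-bt, chr7:103813924-103814173, minus strand: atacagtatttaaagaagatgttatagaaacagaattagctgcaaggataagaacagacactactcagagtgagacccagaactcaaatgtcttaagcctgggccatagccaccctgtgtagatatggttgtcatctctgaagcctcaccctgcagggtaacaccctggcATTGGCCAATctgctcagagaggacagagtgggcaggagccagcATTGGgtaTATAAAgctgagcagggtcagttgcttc
The window of Hba-a2 (chr11:32296242-32296491) shares a run of 247 bases with that of Hba-a1, while the longest run shared by the Hbb-bs and Hbb-bt windows is 14 bases. CCAAT begins 88 bases before the start of Hba-a1, 91 before that of Hba-a2, 76 before that of Hbb-bs, and 80, 75 and 36 before that of Hbb-bt. Hbb-bs also holds CCACACCC at 93 and AGATAA at 210 bases before its start, and Hbb-bt TATAAA at 28. No 2 of the matches overlap. Among 27025 promoters of 300 bases (250 before to 50 after the start), 37.9% hold CCAAT, 3.6% CCACACCC, 14.2% TATAAA and 11.4% AGATAA.

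Hbb-bs stood at 231.8, 157, 328 and 203.4 CPM in NUL_220, NUL_221, NUL_226 and NUL_227, and at 9.11, 17.8 and 10.4 CPM in ID8_101b, ID8_14 and ID8_98b. Its log2 fold change was -4.20 (SE 0.59, edgeR adjusted p = 0.00254), an 18.4-fold lower level. Hba-a2 stood at 135, 86.3, 198 and 95.2 CPM in NUL and at 3.11, 7.36 and 5.49 CPM in ID8, in the same order of libraries. All 7 values place the groups far apart, with NUL_226 the highest for each of the 4 genes. The log2 fold change of Hba-a2 was -4.57 (SE 0.61, edgeR adjusted p = 0.00190). Hba-a1 went from 96.5, 69.4, 140.1 and 68.1 CPM in NUL to 3.73, 5.03 and 4.69 CPM in ID8, a log2 fold change of -4.37. Hbb-bt, the least abundant, went from 20.7, 16.03, 35.4 and 22.9 CPM to 0.621, 0.819 and 0.868 CPM, a log2 fold change of -4.92. Per transcript length the order was the same in both groups: Hbb-bs (mean 765 TPM in NUL, 39.2 in ID8), Hba-a2 (535 and 21.0), Hba-a1 (260.3 and 11.8) and Hbb-bt (65.4 and 1.99). Transcripts of Hba-a1 and Hba-a2 are 99.8% identical over the aligned 538 bases and those of Hbb-bs and Hbb-bt 94.9% over 585, and the deposited counts of all 4 genes are fractional in all 27 libraries, so the split within each pair is uncertain. BALB/c mice also carry another beta globin haplotype than the reference genome, so the beta pair stands for that locus as a whole.

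The sum of the 4 genes separated day 8 from every other stage. It was 484, 329, 701 and 389.6 CPM in the NUL libraries and 16.6, 30.96 and 21.5 CPM in the ID8 libraries. At ID6 the 6 libraries ranged from 50.6 to 258 CPM with a median of 73.7, and at REG the 4 libraries ranged from 445 to 631 CPM. The ID8 values lie below all 24 other libraries of the series. In ID2 and ID4 the libraries with numbers under 200 held 402.6 and 1169 CPM (ID2) and 1006 and 686 CPM (ID4), against 585 CPM (ID2) and 483 and 399.99 CPM (ID4) in those with higher numbers. The estimate for numbers under 200 within these stages was 0.68 to 0.89 on the log2 scale over the 4 genes (edgeR unadjusted p from 0.0761 to 0.181). Against REG all 4 genes were lower at day 8, by -4.88 (Hbb-bt), -4.72 (Hba-a2), -4.48 (Hba-a1) and -4.37 (Hbb-bs) on the log2 scale. Against ID6 they were lower by -2.38, -2.26, -1.88 and -2.20 in the same order (edgeR adjusted p = 0.0429, 0.0213, 0.0379 and 0.0213). All 4 stayed called against NUL without each library in turn (largest edgeR adjusted p 0.0322, without ID8_101b). With only NUL and ID8 in the fit Hba-a2 was no longer called (edgeR adjusted p = 0.0517).

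**Figure D3:**
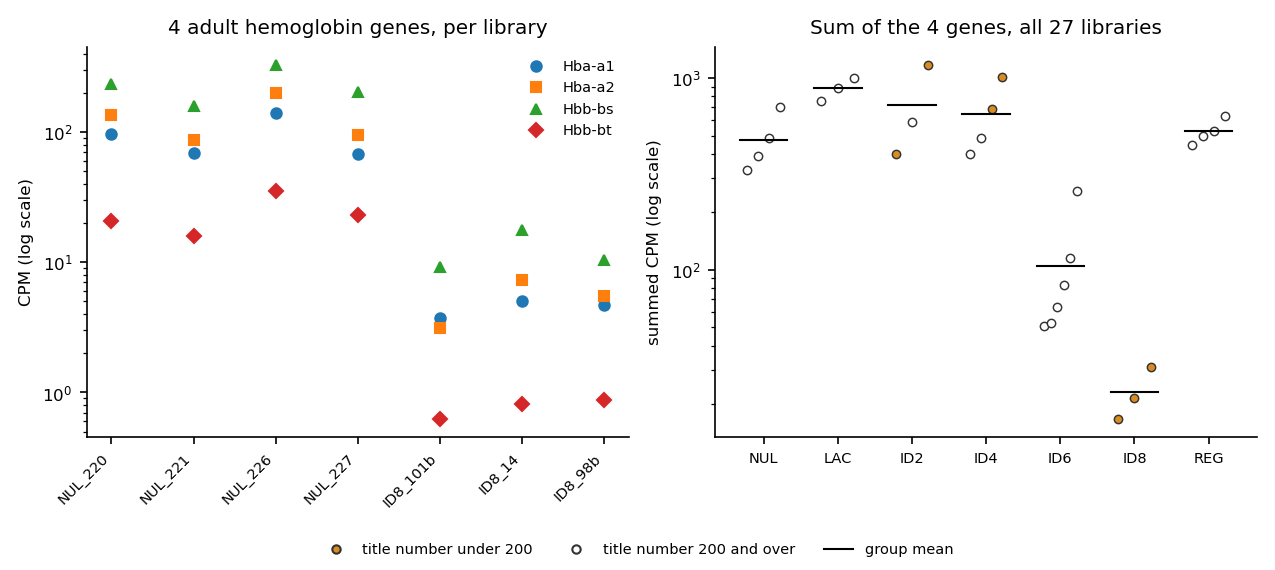
Left, CPM on a log axis of the 4 adult hemoglobin genes in each NUL and ID8 library. Right, their summed CPM on a log axis in all 27 libraries by stage, with filled points for title numbers under 200 and bars for group means. The 3 ID8 libraries sit between 16.6 and 30.96 CPM, below all others, and both filled ID4 points lie above both open ones.

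No other gene of the red cell list was called in edgeR. Of its 14 tested members 4 were called, all lower and all hemoglobin genes (0.140% lower over all genes), and DESeq2 called 6, all lower. An unadjusted p under 0.05 was reached by 10 of 14, all lower (5.92% over all genes), with a list median of -2.76 against 0.004 over all genes (-0.31 against -0.04 on log2(TPM + 1)). Alas2, the erythroid form of the first enzyme of heme synthesis, stood at 8.44, 5.70, 10.4 and 6.61 CPM in NUL and 3.34, 4.07 and 2.67 CPM in ID8 (log2 fold change -1.21, SE 0.43, edgeR adjusted p = 0.234). The values of the groups did not overlap, but the difference was not called. Slc4a1, the band 3 anion exchanger of the red cell membrane, was near 0 in both groups apart from 1.26 CPM in NUL_226. Without NUL_226 the list median was -1.29. The 18 list genes left after the 4 adult hemoglobin genes summed to 57.8 to 65.7 CPM in NUL and 44.2 to 50.2 CPM in ID8. Genes of platelets, which travel in the same blood, summed to 11.1 to 16.8 CPM in NUL and 12.8 to 16.2 CPM in ID8, with 0 of 11 called. Heme synthesis and breakdown genes had 0 of 16 called and a median of -0.04. In bulk tissue fewer red cells and less RNA per cell cannot be told apart.

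Of 45 tested cell cycle genes 5 were called, all lower at day 8 than in nulliparous liver, against 0.140% over all genes. The list median was -0.61 (-0.24 on log2(TPM + 1)), with 24 members lower and 2 higher at an unadjusted p under 0.05 (5.92% and 6.90% over all genes). Kif20a encodes a kinesin of the dividing cell's midzone. It stood at 2.22, 1.05, 4.17 and 1.75 CPM in NUL and 0.569, 0.791 and 0.726 CPM in ID8. The lowest NUL library lay above the highest ID8 library, and the log2 fold change was -1.71 (SE 0.34, edgeR adjusted p = 0.0179). Plk1, a kinase that drives entry into and passage through mitosis, stood at 0.921, 0.427, 1.43 and 0.973 CPM in NUL and 0.181, 0.287 and 0.0789 CPM in ID8, a log2 fold change of -2.34 with SE 0.53 and an edgeR adjusted p of 0.0399. Aurkb and Birc5 encode the kinase and the survivin subunit of the chromosomal passenger complex, which corrects the attachment of chromosomes. Aurkb went from 0.461 to 0.795 CPM in NUL to 0.0777 to 0.216 CPM in ID8 (log2 fold change -1.92). Birc5 went from 0.640 to 1.32 CPM to 0.181 to 0.363 CPM (-1.72). Mcm6, a subunit of the helicase that unwinds DNA for replication, went from 1.40 to 1.98 CPM to 0.518 to 1.03 CPM (-1.19).

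Ttk (-3.10) and Hmmr (-2.36), a spindle checkpoint kinase and a spindle-associated protein, were called as well. They were not on the list and are named because their values were seen. Ttk lost its call in each of the 7 fits without a library and Hmmr in 5 (largest edgeR adjusted p 0.160 and 0.159). Ttk had counts of 2, 0 and 4 in ID8_101b, ID8_14 and ID8_98b and of 18 to 28 in NUL. Other members showed how uneven the list is. Mki67, the usual marker of cycling cells, stood at 2.07 to 7.35 CPM in NUL and at 2.10, 10.0 and 3.27 CPM in ID8, with a log2 fold change of 0.33 (edgeR adjusted p = 0.840). Ccnd1, the cyclin of the step into the cycle, was at 26.8 to 83.7 CPM in NUL and 19.1 to 35.1 CPM in ID8 (-1.20, edgeR adjusted p = 0.155). The summed CPM of the list was 300.6, 239.8, 323 and 313 in NUL and 226.9, 234.1 and 220.2 in ID8. REG libraries held 196 to 237 CPM and LAC libraries 457 to 534 CPM. Against REG 0 of 45 members were called in edgeR and the list median was 0.13. Against ID6 1 member was called, the cell cycle inhibitor Cdkn1a, lower at day 8, and the list median was -0.23. The number of calls depended on the libraries: 0 remained without ID8_101b, 0 without ID8_98b, 0 without NUL_226, 1 without NUL_227, 2 without NUL_220, 4 without ID8_14 and 5 without NUL_221. There were 0 with the number range as a covariate, 2 with sequencing runs or the length offset, 0 with only NUL and ID8 in the fit, 1 on each log2 TPM scale, 8 with the clock score as a covariate and 10 with DESeq2. NUL_226 had the highest Kif20a, Plk1, Aurkb and Birc5 of the 4 NUL libraries. Counts of Kif20a are fractional in all libraries.

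The 250 bases before the starts of Plk1 and Mcm6 are shown as 2 of the called genes with a RefSeq entry, with CCAAT on either strand in capitals.
Plk1, chr7:122159185-122159434, plus strand: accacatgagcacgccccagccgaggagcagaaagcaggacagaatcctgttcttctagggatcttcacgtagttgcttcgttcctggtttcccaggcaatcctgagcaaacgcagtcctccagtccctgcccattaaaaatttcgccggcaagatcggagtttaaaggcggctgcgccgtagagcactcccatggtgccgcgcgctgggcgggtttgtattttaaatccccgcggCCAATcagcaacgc
Mcm6, chr1:128359706-128359955, minus strand: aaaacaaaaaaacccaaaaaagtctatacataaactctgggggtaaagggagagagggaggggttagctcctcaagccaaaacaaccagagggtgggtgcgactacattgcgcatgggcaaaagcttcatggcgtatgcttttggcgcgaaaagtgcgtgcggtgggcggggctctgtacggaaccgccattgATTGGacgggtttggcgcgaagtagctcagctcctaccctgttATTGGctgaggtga
CCAAT begins 14 bases before the start of Plk1 and 57 and 14 bases before that of Mcm6. TTTGAA, a core of the cell cycle homology region, was found 30 bases after the start of Plk1 and in 18.1% of all promoters. Birc5 held neither of these motifs in its 300 bases. Aurkb and Kif20a are not shown.

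Of the enzymes of cholesterol synthesis, 3 were called lower than in nulliparous liver and 13 higher than at day 6. The pathway makes sterols from acetyl-CoA under control of the transcription factor SREBP2. The list has 25 members, so the 3 calls against NUL stand beside 0.140% called lower over all genes. At an unadjusted p under 0.05, 8 were lower and 1 higher, against 5.92% and 6.90% over all genes. The list median was -0.26, and it was -0.15 without ID8_101b or NUL_227 and -0.47 without ID8_14. Cyp51, lanosterol demethylase, stood at 69.9, 100.3, 96.7 and 144 CPM in NUL and 46.5, 59.7 and 52.4 CPM in ID8. The groups did not overlap, and the log2 fold change was -0.96 (SE 0.17, edgeR adjusted p = 0.0101). Msmo1, the next sterol oxidase in the pathway, stood at 50.1, 87.8, 64.0 and 99.6 CPM in NUL and 29.6, 41.4 and 45.5 CPM in ID8 (-0.96, SE 0.19, edgeR adjusted p = 0.0239). Idi1, which isomerises the isoprenoid building block, stood at 87.2, 134, 115 and 178 CPM in NUL and 46.5, 70.4 and 60.7 CPM in ID8 (-1.12, SE 0.25, edgeR adjusted p = 0.0460). NUL_227 was the highest and ID8_101b the lowest library for each of the 3 genes.

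Other enzymes of the pathway were not called. Hmgcs1, which makes the HMG-CoA that feeds it, had a log2 fold change of -0.87 (edgeR adjusted p = 0.0778), and Sqle, squalene epoxidase, of -1.44 (0.0871). The summed CPM of the pathway overlapped, from 3309 to 4633 in NUL and 2740 to 3890 in ID8. Against ID6, 13 of 25 members were called (4.12% over all genes), all higher at day 8, with a median of 0.65. Alternatives for these 13 calls are not given here. Over all genes, the calls against ID6 fell steeply with the number range as a covariate and without ID8_101b. Msmo1 was at 11.6 to 19.4 CPM in the 6 ID6 libraries, below all ID8 values, and was higher at day 8 by 1.33 on the log2 scale (SE 0.17, edgeR adjusted p = 2.46e-04). Idi1 was higher by 1.14 and Cyp51 by 0.81. Against REG 0 members were called and the median was -0.29. The number of calls against NUL was 0 without ID8_101b, 1 without ID8_14, NUL_221 or NUL_227, 2 without ID8_98b or NUL_226 and 5 without NUL_220. It was 0 with the number range as a covariate or with only NUL and ID8 in the fit, 1 with sequencing runs as a covariate, 2 on each log2 TPM scale or with no low-count filter, 4 with the clock score as a covariate and 5 with DESeq2. The promoters of 2 of these genes follow, with CCAAT in capitals.
Cyp51, chr5:4104698-4104947, minus strand: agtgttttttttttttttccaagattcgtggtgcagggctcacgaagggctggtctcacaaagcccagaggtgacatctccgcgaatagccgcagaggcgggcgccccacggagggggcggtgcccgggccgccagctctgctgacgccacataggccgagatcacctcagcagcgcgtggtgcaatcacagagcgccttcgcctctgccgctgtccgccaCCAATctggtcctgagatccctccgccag
Idi1, chr13:8885356-8885605, plus strand: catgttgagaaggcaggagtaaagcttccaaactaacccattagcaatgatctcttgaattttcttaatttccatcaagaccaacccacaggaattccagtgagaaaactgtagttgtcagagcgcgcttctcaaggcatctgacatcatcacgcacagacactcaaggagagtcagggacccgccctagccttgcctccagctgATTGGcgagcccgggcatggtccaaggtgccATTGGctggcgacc
CCAAT begins 29 bases before the start of Cyp51, 45 and 14 before that of Idi1, and 160, 96 and 55 before that of Msmo1. TCACNCCAC, a sterol regulatory element sequence that 1.2% of all promoters hold, has no match in the 300 bases of these 3 genes.

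Of 28 tested genes for the uptake, binding and storage of fatty acids 3 were called, all higher at day 8, against 0.359% over all genes. The list median was 0.16 (0.27 without ID8_14 and 0.26 without NUL_221). It was 0.35 with the clock score as a covariate and 0.12 with only NUL and ID8 in the fit. Fabp5, a fatty acid binding protein of skin, fat and macrophages that the liver makes at low level, stood at 49.2, 57.0, 76.5 and 74.4 CPM in NUL and 247, 270.4 and 154 CPM in ID8. The log2 fold change was 1.80 (SE 0.39, edgeR adjusted p = 0.0412). Its reads are shared with the pseudogene Gm6166, 98.3% identical over 409 bases, which was called higher too (1.92). Cd36, a surface receptor for long-chain fatty acids, stood at 48.9, 32.5, 32.3 and 26.2 CPM in NUL and 64.1, 85.3 and 60.6 CPM in ID8 (1.0, SE 0.20, edgeR adjusted p = 0.0225). Plin3, a coat protein of lipid droplets, stood at 30.9 to 40.8 CPM in NUL and 42.5 to 54.1 CPM in ID8 (0.47). All 3 calls lay above every NUL library. The calls in the list came to 0 without NUL_226 or NUL_227, to 1 without ID8_101b, ID8_14, NUL_220 or NUL_221, and to 2 without ID8_98b. They came to 0 with the number range as a covariate and on both log2 TPM scales, to 1 with only NUL and ID8 in the fit or with the clock score as a covariate, to 2 with sequencing runs, the length offset or no low-count filter, and to 5 with DESeq2.

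Eci3, an isomerase of unsaturated fatty acid oxidation, stood at 0.827 to 1.42 CPM in NUL and 3.05 to 4.09 CPM in ID8 (log2 fold change 1.60), and was the 1 called member of 36 in the oxidation list (0.359% called higher over all genes), whose median was 0.01. It was called in none of the 7 fits without a library. Lpl, lipoprotein lipase, stood at 7.54 to 21.8 CPM in NUL and 27.4 to 46.7 CPM in ID8 (1.3, edgeR adjusted p = 0.0581). Genes of fatty acid and triglyceride synthesis had 0 of 27 called in edgeR, but 13 were higher and 0 lower at an unadjusted p under 0.05, against 6.90% and 5.92% over all genes, with a median of 0.36. DESeq2 called 3 of the 27, all higher. With a filter at a mean CPM of at least 1 edgeR called 2, and without ID8_98b it called 1, all higher. Without ID8_14 the 13 became 3 and the median 0.11, without NUL_226 the 13 became 7, and with the number range as a covariate they became 3. With the clock score as a covariate 4 were higher and 1 lower (median 0.21). The 13 became 4 with only NUL and ID8 in the fit and 3 on each log2 TPM scale (median 0.20). The median was 0.62 without ID8_101b and 0.56 without ID8_98b. Scd1, the desaturase that makes oleate, stood at 4134, 2723, 2538 and 3146 CPM in NUL and 8198, 16353 and 6561 CPM in ID8 (1.73, SE 0.41, edgeR adjusted p = 0.0614). Fasn, fatty acid synthase, stood at 244 to 471 CPM in NUL and at 320.1, 1703 and 275 CPM in ID8. For both genes ID8_14 was far above ID8_101b and ID8_98b, and the summed list held 28371 CPM in ID8_14 against 14285 and 12558 CPM in the other ID8 libraries and 7622 to 10084 CPM in NUL.

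A pair of immunoglobulin light chain genes and Jchain were called higher at day 8. Igkc, the kappa light chain constant region, stood at 3.83, 4.48, 6.30 and 6.52 CPM in NUL and 12.4, 11.6 and 13.1 CPM in ID8. The log2 fold change was 1.23 (SE 0.23, edgeR adjusted p = 0.0101). Jchain, which joins IgM and IgA into polymers, stood at 1.45, 1.74, 2.94 and 3.18 CPM in NUL and 6.32, 6.18 and 5.95 CPM in ID8 (1.40, SE 0.26, edgeR adjusted p = 0.0101). Iglc2, a lambda light chain constant region, stood at 0.411 to 0.843 CPM in NUL and 1.61 to 2.13 CPM in ID8 (1.85). The ID8 libraries were close to each other for all 3 genes, and Igkc and Jchain were called without each library in turn. Ighm, the IgM heavy chain, stood at 8.08, 9.83, 15.5 and 14.3 CPM in NUL and 28.1, 25.9 and 26.6 CPM in ID8 (1.17, SE 0.29, edgeR adjusted p = 0.0778). It was not called.

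Igkc, Jchain and Iglc2 were the 3 calls among 26 B and plasma cell genes, all higher (0.359% over all genes), and DESeq2 called 4, all higher. At an unadjusted p under 0.05, 6 were higher and 1 lower (6.90% and 5.92% over all genes), and 6 lay wholly above NUL (957 of 16428 over all genes). The calls came to 0 with the number range as a covariate and to 2 without NUL_227 or with only NUL and ID8 in the fit. The list median was -0.02, with 12 members above 0 and 14 below. It was 0.17 without ID8_101b, -0.29 with the number range as a covariate and 0.24 with the clock score as a covariate. Mzb1, made by antibody-secreting cells, was at 0.229 to 0.395 CPM in NUL and 0.331 to 0.414 CPM in ID8. Derl3 of the same list had the opposite sign (-2.06, edgeR adjusted p = 0.245). Against ID6, 3 of the 26 were called higher at day 8, Jchain (1.02), Iglc2 (1.25) and Sdc1, the plasma cell surface proteoglycan syndecan, and 1 was called lower, Derl3 (4.12% called over all genes). Against REG 0 of the 26 were called (0.0487% over all genes) and the list median was -0.08. Ighm stood at 33.3 CPM in REG_203, above every ID8 library, and at 13.1 to 18.6 CPM in the other REG libraries. Other immune and stromal lists had no call in edgeR. Kupffer cell and macrophage markers summed to 1088 to 1209 CPM in ID8 and 995 to 1222 CPM in NUL (28 tested, 2 at an unadjusted p under 0.05, against 12.8% over all genes). T and NK cell markers summed to 19.2 to 23.9 CPM in ID8 and 15.8 to 24.02 CPM in NUL (29 tested, 1), and endothelial markers to 966 to 996 CPM and 872 to 988 CPM (28 tested, 3). Stellate cell markers summed to 518 to 529 CPM in ID8 and 497 to 591 CPM in NUL (20 tested, 3). The neutrophil list had 0 of 16 members, the MHC class II list 0 of 21 and the interferon list 3 of 41 at an unadjusted p under 0.05.

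**Figure D4:**
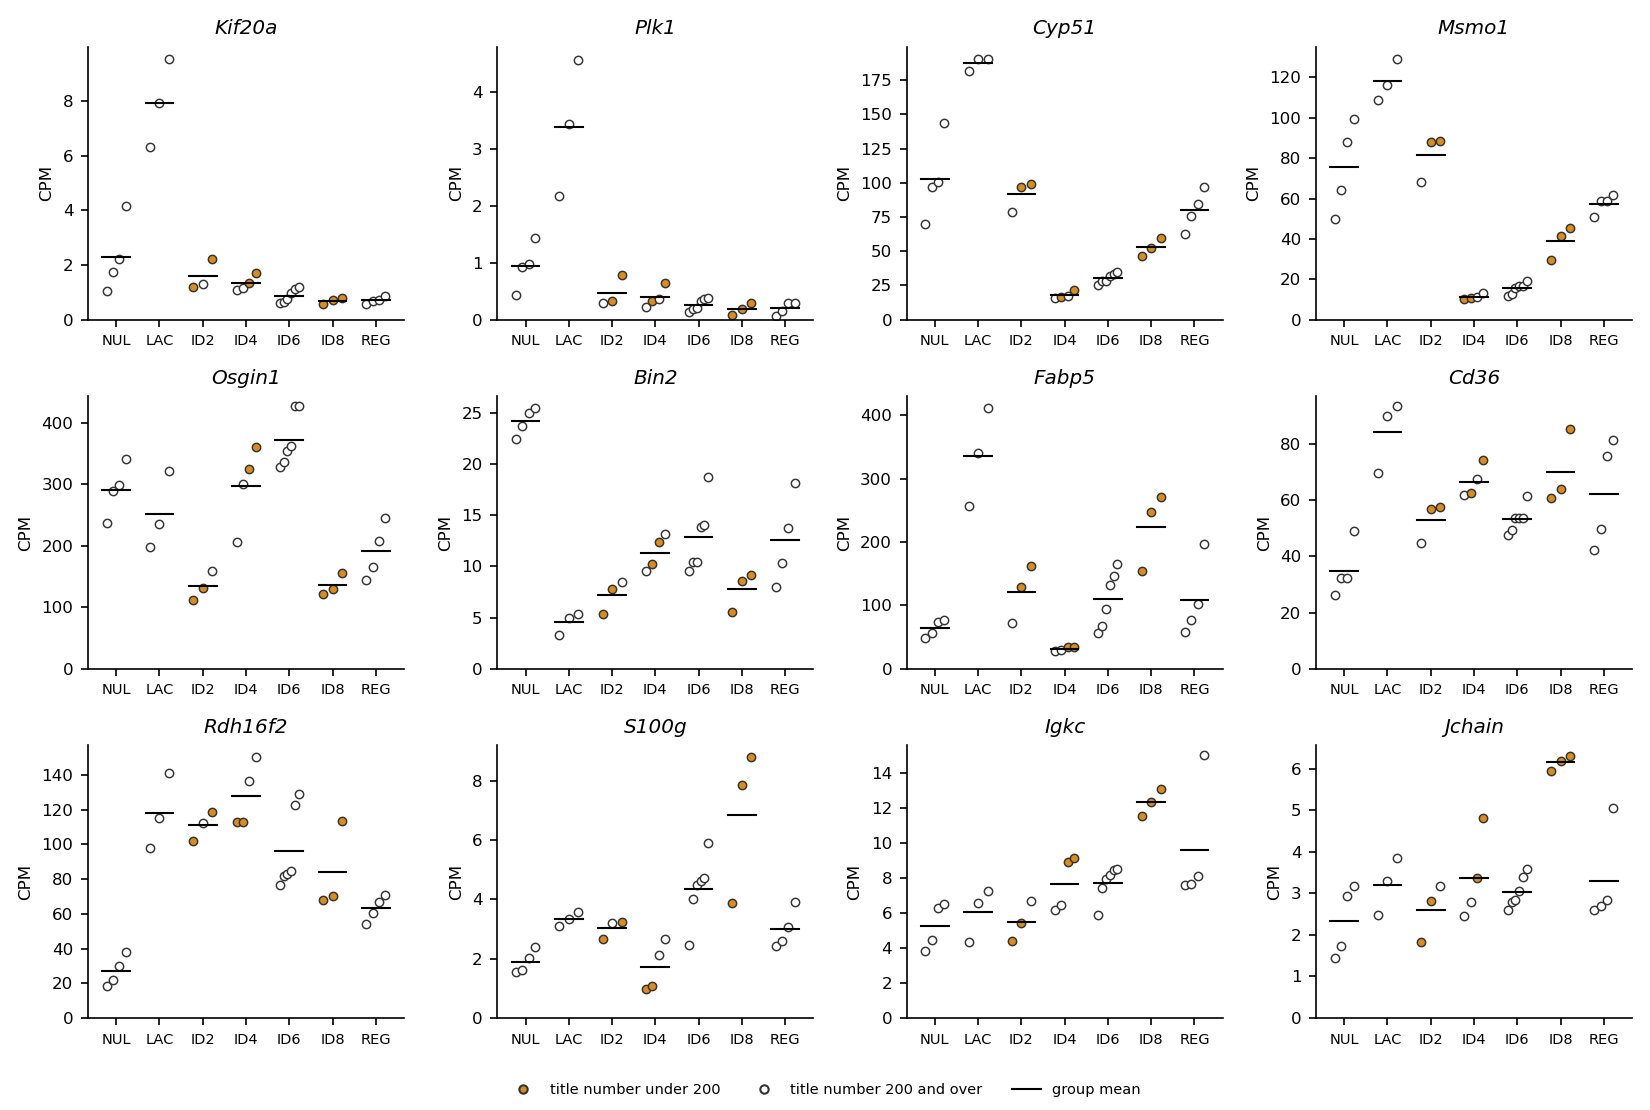
CPM of 12 called genes in all 27 libraries by stage, from 0 on each y axis, with filled points for title numbers under 200, open points for higher numbers and bars for group means. Cyp51 and Msmo1 are lowest at ID4 and ID6, Igkc and Jchain lie highest on average at ID8, and Osgin1 at ID8 lies below all NUL and ID6 libraries.

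Among the named genes that rose were several enzymes. Rdh16f2, a retinol dehydrogenase family member, stood at 38.1, 18.6, 21.9 and 29.8 CPM in NUL and 114, 68.2 and 70.4 CPM in ID8. It was higher by 1.63 on the log2 scale (SE 0.23, edgeR adjusted p = 0.00190), the call of smallest p among the genes that rose. Cyp2a4, a steroid 15-alpha hydroxylase that is higher in female liver, stood at 545, 426, 621 and 756 CPM in NUL and 1263, 1367 and 1051 CPM in ID8 (1.06, SE 0.17, edgeR adjusted p = 0.00354). Its transcript is 98.2% identical to that of Cyp2a5 over 1739 bases, so reads of the pair may be exchanged. S100g, the calcium-binding protein calbindin-D9k, stood at 1.56, 1.62, 2.40 and 2.01 CPM in NUL and 7.87, 8.80 and 3.87 CPM in ID8 (1.85, SE 0.30, edgeR adjusted p = 0.00354). Got1, the cytosolic aspartate aminotransferase, stood at 332 to 435 CPM in NUL and 733, 522 and 472 CPM in ID8 (0.59). Got1 was the 1 call among 34 genes of amino acid breakdown and the urea cycle (0.359% called higher over all genes), of which 13 were higher and 2 lower at an unadjusted p under 0.05 (6.90% and 5.92% over all genes, median 0.22). Without ID8_101b these counts were 6 and 3, and without NUL_226 they were 8 and 1.

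Mycl, a transcription factor of the MYC family, stood at 8.05, 5.61, 4.82 and 3.72 CPM in NUL and 17.6, 14.7 and 15.5 CPM in ID8 (1.52, SE 0.25, edgeR adjusted p = 0.00473). Gpc3, a membrane-anchored heparan sulfate proteoglycan abundant in fetal liver, stood at 2.33, 2.65, 6.97 and 7.30 CPM in NUL and 15.2, 11.3 and 11.4 CPM in ID8 (1.39). The NUL libraries fell into a lower and a higher pair for Gpc3, both under the ID8 values. Tmie, a membrane protein known from the inner ear, stood at 8.60 to 14.4 CPM in NUL and 23.7 to 25.5 CPM in ID8 (1.22). Ifi27l2b (1.58), Ggt6 (1.17), a gamma-glutamyltransferase family member, and Itpka (1.04), an inositol trisphosphate kinase, completed the 12 largest rises under the naming rule, which leaves out genes with a mean log2 CPM under 1 and placeholder symbols. Larger called rises lie outside those limits, such as Iglc2, Eci3 and Slc2a4. Of the named rises, Rdh16f2, Cyp2a4, S100g, Mycl, Igkc and Jchain were called without each library in turn, while Tmie lost its call in 6, Gpc3 in 5 and Got1 in 5 of the 7 fits (largest edgeR adjusted p 0.137, 0.194 and 0.398). Slc2a4, the insulin-responsive glucose transporter of fat and muscle, was called at a log2 fold change of 3.89 but stood at 3.75 CPM in ID8_14 against 0.518 and 0.442 CPM in the other ID8 libraries, and its largest edgeR adjusted p was 0.242, without ID8_14. It lies outside the naming rule.

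Bin2, a membrane-bending protein of blood cells, stood at 22.4, 23.7, 24.9 and 25.5 CPM in NUL and 5.59, 8.54 and 9.16 CPM in ID8. Its log2 fold change was -1.63 (SE 0.26, edgeR adjusted p = 0.00446). Osgin1, a growth inhibitor induced by oxidative stress, stood at 288, 341, 237 and 298 CPM in NUL and 122, 129.7 and 155 CPM in ID8 (-1.10, SE 0.20, edgeR adjusted p = 0.00854). It was the 1 call among 29 antioxidant genes (0.140% called lower over all genes), whose median was -0.03. Slc39a5, the zinc importer ZIP5, stood at 9.34, 9.19, 9.16 and 8.03 CPM in NUL and 3.91, 2.21 and 3.79 CPM in ID8 (-1.44, SE 0.25, edgeR adjusted p = 0.00644), the 1 call of 15 in the zinc list. Npnt, the matrix protein nephronectin, went from 2.98 to 7.82 CPM in NUL to 0.949 to 1.91 CPM in ID8 (-1.80). Phospho1, a phosphatase of phosphocholine and phosphoethanolamine, went from 4.39 to 7.38 CPM to 1.73 to 2.75 CPM (-1.35). Adamts1, a metalloprotease that cuts matrix proteoglycans, went from 8.56 to 10.7 CPM to 4.93 to 7.53 CPM (-0.66) and was the 1 call among 36 matrix enzymes, while 0 of 38 collagens and matrix proteins were called in edgeR (median -0.15, 5 at an unadjusted p under 0.05, against 12.8% over all genes). Bin2 and Slc39a5 were called without each library in turn. Phospho1 and Adamts1 each lost their call in 5 of the 7 fits (largest edgeR adjusted p 0.174 and 0.165), Npnt in 2 and Osgin1 in 1.

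Among the 52 gene lists examined, 39 held no called gene in edgeR, and some of these leaned one way. Genes of endoplasmic reticulum folding, stress and degradation were lower for 16 and higher for 1 of 34 at an unadjusted p under 0.05 (5.92% and 6.90% over all genes), with a median of -0.39, and 18 of 34 had ID8 values wholly below NUL (990 of 16428 over all genes). DESeq2 called 3 of the 34, all lower. The 16 became 8 without ID8_98b, 9 without ID8_101b or NUL_227 and 6 with the number range as a covariate. Dnajb9, a chaperone partner that restrains the stress sensor IRE1, stood at 99.8, 74.0, 70.7 and 98.6 CPM in NUL and 40.4, 58.9 and 41.6 CPM in ID8 (-0.87, SE 0.23, edgeR adjusted p = 0.0945). Syvn1, a ubiquitin ligase of misfolded protein removal, stood at 102 to 182 CPM in NUL and 53.0 to 62.3 CPM in ID8 (-1.15, edgeR adjusted p = 0.119). Glucose and glycogen genes were higher for 12 and lower for 0 of 27 (6.90% and 5.92% over all genes, median 0.19), and DESeq2 called 6 of the 27, all higher. The member of smallest p was Pygl, liver glycogen phosphorylase, at 362 to 510.4 CPM in NUL and 483 to 753 CPM in ID8 (0.49, edgeR adjusted p = 0.0703). Ribosomal protein genes were higher for 12 and lower for 0 of 76, with a median of 0.14 that was 0.05 on log2(TPM + 1). Cytochrome P450 and conjugation enzymes gave 1 call, Cyp2a4, of 59 (0.359% called higher over all genes) and a median of 0.06. The member of smallest p in the lists without a call had an edgeR adjusted p from 0.0510 (Cdh1, the epithelial cadherin, of the periportal list) to 0.501 (Psma6, of the proteasome list). Cyp3a41a of the sex-biased list, H2-Q7 of MHC class I, Slc13a3 of the pericentral list, the second hepcidin gene Hamp2, Slc10a1 of bile acid transport, Apoe of the lipoproteins, Cpb2 of coagulation and Fn1 of the matrix lay between.

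**Figure D5:**
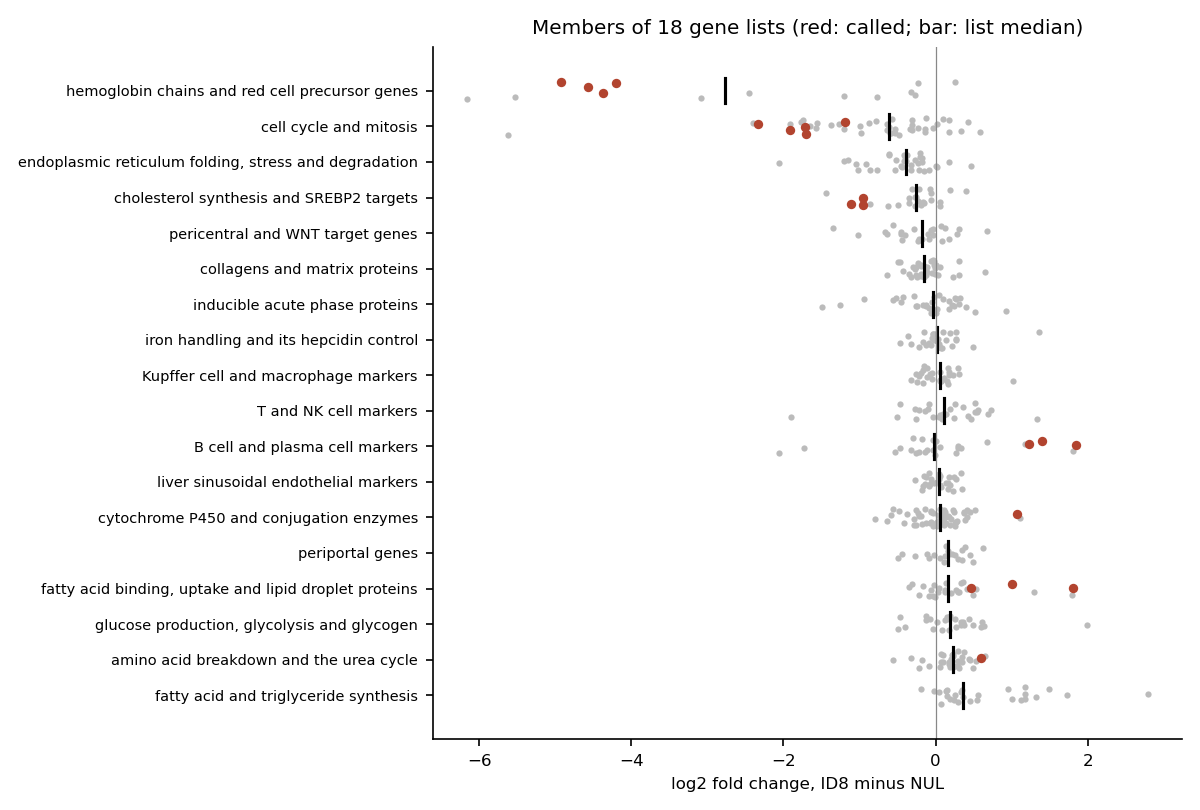
Each point is a tested member of 1 of 18 gene lists, placed on the x axis at its log2 fold change of ID8 minus NUL, with called members red and the list median as a bar. The red cell list lies farthest to the left with a median of -2.76, and the cell cycle and endoplasmic reticulum lists have medians of -0.61 and -0.39. The vertical scatter within a list has no meaning.

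Of 20 circadian clock genes 7 were higher and 3 lower at an unadjusted p under 0.05 (6.90% and 5.92% over all genes), with no call in edgeR. Cry1, a repressor of the clock, stood at 34.3, 41.9, 20.7 and 27.9 CPM in NUL and 17.6, 13.3 and 15.8 CPM in ID8 (-1.01, edgeR adjusted p = 0.0775). Dbp, a clock output gene, stood at 0.594 to 2.69 CPM in NUL and 6.70, 14.2 and 2.78 CPM in ID8. A score of the clock list, its first principal component, was 1.61, 3.18 and -0.39 in ID8 and -2.18, -3.52, -0.35 and -0.50 in NUL. With that score as a covariate 105 genes were called, 53 of them higher (50.5% against 72.0%). The part of the time of day in single genes was not tested. Exocrine pancreas markers summed to 53.2 CPM in ID8_98b, 11.6 and 11.1 CPM in the other ID8 libraries and 19.9 to 34.3 CPM in NUL, with 0 of 18 called in edgeR and 0 at an unadjusted p under 0.05. The median of the 18 was 8.03 (0.62 on log2(TPM + 1)), with 16 above 0, and the values of 16 members overlapped between the groups. For the number range within ID2 and ID4, 16 of the 18 had an unadjusted edgeR p under 0.05 (4.62% over all genes). The median of that estimate was 12.4, and no member was called. With titles under 200, ID2_31 held 2232 CPM of these markers and ID4_15 held 175 CPM. The other ID2 and ID4 libraries, of either number range, held 10.4 to 22.3 CPM. Markers of fat and muscle, tissues that also express Fabp5, Lpl and Slc2a4, summed to 588.6, 956.5 and 466.7 CPM in ID8 and to 699 to 934 CPM in NUL. Of the 9 tested of 19 markers 0 were called in edgeR and 1 had an unadjusted p under 0.05, and the median was 0.92 (0.14 on log2(TPM + 1)). Adipoq, the fat cell hormone adiponectin, stood at 0.699, 0.129 and 0.805 CPM in ID8 and 0.0152 to 0.289 CPM in NUL (2.28, edgeR adjusted p = 0.466). The part of fat or muscle in the Fabp5, Lpl and Slc2a4 values was not tested.

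Set beside the neighbouring stages, day 8 gave more calls against day 6 than against 4 weeks after weaning, but not with the number range as a covariate. Against ID6, 677 genes were called (4.12%), 390 higher and 287 lower at day 8, and against REG 8 genes (0.0487%), 3 higher and 5 lower. The ID6 count was 117 without ID8_101b, 179 higher and 47 lower without ID8_98b, 323 without ID6_209 and 376 without ID6_232. The REG count was 2 without ID8_101b, 14 without ID8_14, 4 without ID8_98b or REG_214 and 5 without REG_239. With the number range as a covariate the counts were 6 against ID6 and 7 against REG. The uncertainty of that covariate adds to both comparisons, so a lost call need not mean a smaller difference. All ID6 and REG titles carry numbers of 200 or over, so here too stage and number range cannot be told apart, and the comparisons share the ID8 libraries. The groups also differ in size (6 and 4 libraries), and the 2 counts were not tested against each other. The REG calls were the 4 hemoglobin genes and Creb3l2 (-0.96), lower at day 8, and Spata2l (0.80), Gm15408 (1.19) and Phldb1 (0.68), higher at day 8. Amino acid breakdown and urea cycle genes had 14 of 34 called against ID6, all higher at day 8, and 0 against REG. Kupffer cell and macrophage markers had 9 of 28 called against ID6, all lower at day 8, with summed levels of 1203 to 1672 CPM at ID6 and 1062 to 1150 CPM at REG beside 1088 to 1209 CPM at ID8. Osgin1 ranged from 327 to 427 CPM at ID6 and was lower at day 8 by 1.46 on the log2 scale (edgeR adjusted p = 2.46e-04). Mycl was higher at day 8 than at ID6 by 1.24, Tmie by 1.14, Got1 by 0.68 and Plin3 by 0.50. Rdh16f2 and Cyp2a4 were called against NUL and had log2 differences of -0.20 and 0.07 against ID6 and 0.41 and 0.11 against REG, none of them called.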

How the data were processed

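Bulk RNA sequencing libraries of BALB/c mouse liver were analysed from the deposited gene tables of the authors. Per the labels' protocols, RNA came from a Trizol extraction and was prepared with the NEBNext Ultra kit. STAR 2.6.1a, RSEM 1.3.1 and the builds mm10 and GRCm38 are named in the submitters' processing notes. The deposited expected counts per gene and the TPM values, scaled by length to a common total, are RSEM output per the file headers, as is the effective length. RSEM splits a read that matches several genes, so counts can be fractional. The use of strand is not given in the sources used here, so overlapping and antisense genes are uncertain. Names and positions came from GENCODE M21 on GRCm38 (51633 of 51826 identifiers matched).

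Rounding of the expected counts to whole numbers preceded the fit (edgeR 4.0.16, under R 4.3.3). Genes passed filterByExpr by stage (16428 genes, at least 99.978% of the counts of each library), libraries were scaled by TMM, and all 27 libraries entered 1 quasi-likelihood fit with 7 stage groups and no covariate. The common dispersion was 0.036. The contrasts were ID8 minus NUL, ID6 and REG, two-sided, with Benjamini-Hochberg adjustment over all genes and calls under 0.05. SE was derived from the fold change and its F statistic. The p-values measure the spread between libraries. No pair of libraries within ID8 or NUL was near sampling noise (smallest chi-square per gene 76.3). The fit was tested on simulated data.

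Groups came from the titles. The members, the 52 gene lists and the naming rule were chosen with earlier results of these data known. The rule names the 12 largest called rises and falls without overlap, whose log2 CPM averages 1 or more and whose symbol is no placeholder, every called list gene, the member of smallest p in each list without a call, and the 4 adult hemoglobin genes. Members of smallest p not described in the text, and list members named without a call (among them Hmgcs1, Sqle, Scd1, Mki67 and Alas2), are in the tables or were picked after their values were seen. Alternatives were other scalings and filters, covariates (title number range, sequencing runs, clock score), length offsets, log2(TPM + 1) and log2(TPM + 0.1) in limma 3.58.1, DESeq2 1.42.0, and each library left out in turn. Promoter sequences are RefSeq's, on GRCm38.p6, searched in 300 bases.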

Additional observations from a re-analysis of the deposited data

Results flagged for a closer look

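In 4 of 35 named called genes 1 NUL library lay far from the other 3, judged by its gap to the nearest library over the range of the group (Dixon's test at the 95% level); chance alone marks about 1 in 20 groups. Aurkb was highest in NUL_226 (0.795 CPM) and Iglc2 was highest in NUL_226 (0.843 CPM). Phospho1 was highest in NUL_221 (7.38 CPM) and Slc39a5 lowest in NUL_227 (8.03 CPM). In all 4 genes these libraries still lay on the NUL side of every ID8 library.

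For 14 named genes the difference from NUL at day 8 was not the difference at day 6, by the edgeR contrast of the 2 stages. On the log2 scale the day 8 effect minus the day 6 effect was -2.38 for Hbb-bt, -2.26 for Hba-a2, -1.88 for Hba-a1, -2.20 for Hbb-bs and -1.46 for Osgin1. It was 1.14 for Idi1, 0.81 for Cyp51, 1.33 for Msmo1, 0.50 for Plin3, 0.68 for Got1, 1.14 for Tmie, 1.02 for Jchain, 1.24 for Mycl and 1.25 for Iglc2. For 4 genes the effect also differed from that at 4 weeks after weaning, by -4.88 (Hbb-bt), -4.72 (Hba-a2), -4.48 (Hba-a1) and -4.37 (Hbb-bs). Both sets of differences set titles under 200 against titles of 200 and over.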

How the results depend on the processing

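For ID8 against NUL the 82 calls became 7 with the title number range as a covariate, 49 with sequencing runs as a covariate, 51 with the effective length offset, 36 with only the compared groups in the fit, 33 and 32 on the log2 TPM scales with pseudocounts of 1 and 0.1, 235 with DESeq2 and 15 at an adjusted p under 0.01, and 27 to 67 without a library. Of the calls 72.0% were higher in ID8, against 28.6% with the number range, 50.5% with the clock score, 48.5% and 50% on those TPM scales and 53.3% at the stricter threshold; all-gene medians on the TPM scales were -0.04 and -0.07. No called gene changed sign in any alternative, and 4 kept their call in all of them (Hbb-bt, Hba-a1, Hbb-bs and S100g). For ID8 against ID6 the 677 calls became 6 with the number range, 432 with the length offset, 308 with only the compared groups, 1210 with DESeq2 and 146 at an adjusted p under 0.01, and 117 (without ID8_101b) to 829 (without ID6_218) without a library. Their share higher was 57.6%, against 16.6% and 15.5% on the TPM scales, 76.0% at the stricter threshold and 83.3% with the number range. For ID8 against REG the 8 calls became 18 and 13 on these TPM scales, 78 with DESeq2 and 4 at an adjusted p under 0.01, and 2 (without ID8_101b) to 14 (without ID8_14) without a library. Their share higher was 37.5%, against 0% with the length offset, at the stricter threshold and with a pseudocount of 0.1, 22.2% with a pseudocount of 1, 25% with only the compared groups, 50% with the clock score and 14.3% with the number range. The number range gave 0 calls in every alternative run, edgeR or limma. Ctrb1, a pancreas gene with a log2 fold change of 8.06 that was not called, reversed to -2.43 with the number range. The causes were not tested. No paired analysis was possible because no title number occurs in more than 1 group. The comparison rests on 3 and 4 libraries, and several mitotic genes lay under 1 CPM.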
